A study of Mus musculus with 30 samples.

Results

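The 10 genes described here encode signals that fibroblasts send to other cells: the cytokines Il6, Lif, Il33 and Csf1, the chemokines Ccl2, Ccl7, Cxcl1, Cxcl5 and Cxcl12, and Ptgs2, an enzyme of prostaglandin synthesis. They were chosen by name and make up 10 of the 34724 gene symbols in the deposited table, and all 10 passed the filter for testing (1 TPM or more in 3 or more libraries). The cells were mouse embryonic fibroblasts (MEFs) without Cry2, a repressor of the circadian clock, that all carried c-MYC, an oncogene. Added to this was an empty vector (EV), the wild-type protein (WT), or a CRY2 protein changed by D325H, by S510L or by F428D. Cells grew in 3% oxygen, 5% CO2 and 15% serum, and were plated either at 150 per well and taken on day 14 (low density) or at 500 per well and taken on day 11 (high density). Density and day of harvest therefore cannot be told apart. The 5 constructs at 2 densities give 10 groups of 3 libraries, each from 2 combined wells. Whether the lines with the same construct were made separately is not given in the sources used here, so effects of a construct and of its line cannot be told apart. The p-values of differences set group means against the spread of these libraries within groups, pooled over the groups fitted. Tests are from 1 fit of all 30 libraries unless another setting is named.

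Fibroblasts are a main source of chemokines that draw leukocytes into tissue and of cytokines that act on neighbouring cells. Ccl2 and Ccl7 attract monocytes, Cxcl1 and Cxcl5 attract neutrophils, and Cxcl12 holds or draws cells that carry its receptor Cxcr4. Il6 and Lif signal through the shared receptor chain encoded by Il6st, Il33 is a nuclear alarm cytokine read by Il1rl1, Csf1 keeps macrophages alive, and Ptgs2 is the inducible cyclooxygenase. Many of these genes are known to be induced by NF-kappaB and AP-1 after inflammatory signals.

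The promoters of Il6, Cxcl1, Lif and Ptgs2 are shown because the values of Il6 and Cxcl1, and those of Lif and Ptgs2, moved together between libraries of the same group. Each line gives the 250 bases before the RefSeq start in GRCm38.p6, 5′ to 3′, and the capitals mark matches on either strand to a kappaB-like motif (GGGNNNTTCC), an AP-1 motif (TGANTCA) or an E-box (CACGTG).
Il6 (chr5:30012864-30013113, plus strand): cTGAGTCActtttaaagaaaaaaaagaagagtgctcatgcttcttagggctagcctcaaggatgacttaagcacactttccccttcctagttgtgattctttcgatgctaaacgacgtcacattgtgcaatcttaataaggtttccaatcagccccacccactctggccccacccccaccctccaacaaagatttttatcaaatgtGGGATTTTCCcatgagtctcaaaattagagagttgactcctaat
Cxcl1 (chr5:90890995-90891244, plus strand): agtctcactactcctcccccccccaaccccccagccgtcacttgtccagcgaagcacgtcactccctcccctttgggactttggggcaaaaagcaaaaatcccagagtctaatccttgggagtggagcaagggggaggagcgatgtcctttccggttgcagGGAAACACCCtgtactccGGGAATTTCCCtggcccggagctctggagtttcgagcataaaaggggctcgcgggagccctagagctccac
Lif (chr11:4257318-4257567, plus strand): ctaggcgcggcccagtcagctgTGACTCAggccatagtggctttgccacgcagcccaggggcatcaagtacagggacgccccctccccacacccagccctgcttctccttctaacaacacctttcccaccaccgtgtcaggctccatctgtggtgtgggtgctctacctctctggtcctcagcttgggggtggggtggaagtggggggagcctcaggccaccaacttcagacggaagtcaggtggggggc
Ptgs2 (chr1:150099781-150100030, plus strand): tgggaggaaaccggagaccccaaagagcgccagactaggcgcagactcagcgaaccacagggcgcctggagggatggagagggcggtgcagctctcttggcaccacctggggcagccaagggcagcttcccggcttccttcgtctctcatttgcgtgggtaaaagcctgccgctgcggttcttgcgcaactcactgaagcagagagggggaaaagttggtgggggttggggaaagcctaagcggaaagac
RefSeq entries were found for 7 of the 10 genes, in 8 windows. The kappaB-like motif was in the windows of Il6 (44 to 35 bases before the start), Cxcl1 and Csf1, against 4.65% of all 32817 windows of this length. In Cxcl1 it matched 3 times, at 89 to 80 bases on the minus strand and, in the same letters read from both strands, at 71 to 62 and 70 to 61 bases. The AP-1 motif was in the windows of Il6 (249 to 243 bases) and Lif (228 to 222 bases), against 6.75% of all windows. No E-box was found in the 8 windows (6.02% of all windows), and no motif of the 3 in those of Ptgs2, Cxcl12 and Il33. These are matches of letters and not shown binding sites.

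Libraries held 12182 to 12655 genes at 1 TPM or more, and TPM carries no read depth, so the counting error of a value is unknown. F428D high 2 and D325H high 3 had fewer genes above 0 than the rest (15910 and 16258, median 19002.5). The median within-group SD in log2(TPM + 1) over all tested genes was widest in F428D low (0.266) and WT low (0.233), and WT low 2 and F428D low 1 stood high for several of the 10 genes. Of 11 fibroblast markers all were found in the table, and Vim ran from 4706 to 8643 TPM and Col1a1 from 529 to 5931. Median levels of S100a4, Col1a2, Col3a1, Pdgfra and Pdgfrb were 2810, 595, 440, 78.1 and 54.4 TPM. The other markers were low, with medians of 1.98 (Thy1), 1.89 (Dcn), 1.43 (Lum) and 0.417 TPM (Fap). Of 11 measured macrophage markers, 10 stayed under 1 TPM in every library, with Adgre1 and Tyrobp at 0 throughout, and Cd68 at 1.21 to 6.76 TPM; all 8 endothelial, 6 lymphocyte and 6 mast cell or granulocyte markers stayed under 1 TPM. Of 7 epithelial markers Krt19 was at 28.0 to 494 TPM and Krt18 at 0.170 to 89.9 TPM. Krt14, Krt8 and Cdh1 reached 5.42, 4.48 and 1.49 TPM, and Epcam and Cldn4 stayed at or under 0.491 and 0.115 TPM.

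Across the 30 libraries the genes differed widely in level, given in TPM, which allows for transcript length. Csf1 (median 142 TPM) and Cxcl12 (median 118) were the most abundant, followed by Cxcl5 (32.5), Cxcl1 (23.5), Ptgs2 (22.0) and Ccl2 (19.8). Il33 (4.48), Ccl7 (4.21), Lif (2.95) and Il6 (1.13) were low, and Il6 reached 1 TPM in 16 of the 30 libraries. Csf1 varied least, with a highest library 1.54 times the lowest, whereas Cxcl5 spanned 127 times, Il6 86.5 times and Cxcl12 72.2 times.

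**Figure D1:**
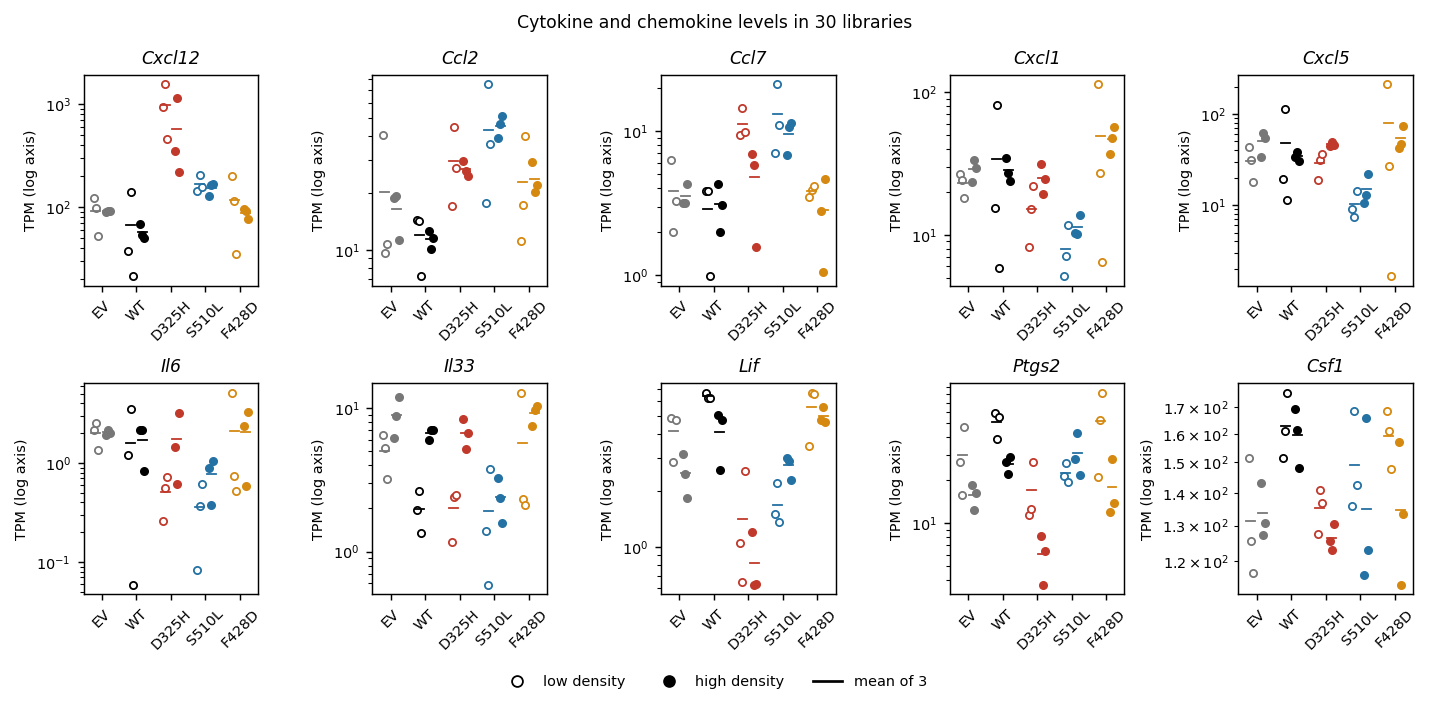
TPM (log axis) of the 10 genes in each of 30 libraries, by construct, with open points for low and filled points for high density and a bar for the mean of 3. All 6 D325H libraries are the highest for Cxcl12 (219 to 1559 TPM), Lif and Ptgs2 are low with D325H, and WT low 2 and F428D low 1 stand out for Cxcl1 and Cxcl5.

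Cxcl12 was the gene of the set that differed most between constructs, and it was high with D325H. At low density it was at 926, 1559 and 453 TPM in the 3 D325H libraries and at 37.7, 142 and 21.6 TPM in the WT libraries. At high density the values were 353, 1136 and 219 TPM with D325H and 69.0, 53.6 and 49.9 TPM with WT. D325H and WT did not overlap at either density, and every D325H library lay above every library of the other constructs, whose highest value was 204 TPM. The difference between D325H and WT was 4.12 ± 0.60 (SE) in log2(TPM + 1) at low density (limma, two-sided, Benjamini-Hochberg adjusted p = 7.55e-05), a 17.4-fold difference of TPM + 1, and 2.94 ± 0.60 at high density (adjusted p = 0.00476). Without D325H high 2, its highest library at that density, the second call ended (adjusted p = 0.0549).

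With S510L, Cxcl12 was at 143, 204 and 156 TPM at low density and 128, 163 and 169 TPM at high density. These libraries all lay above WT of the same density, at low density by a margin of about 1 TPM to WT low 2. The difference from WT was called at low density (1.74 ± 0.60, limma adjusted p = 0.0397) and not at high density (1.41 ± 0.60, adjusted p = 0.148). With only S510L and WT of 1 density fitted, the calls were the other way round. The high-density difference was called (limma adjusted p = 0.00268) and the low-density difference was not (adjusted p = 0.143). Which density is called thus depends on how the spread is estimated. The low-density call was lost in 8 of 16 alternatives, among them the fits without WT low 1, without WT low 3 and without any 1 of the 3 S510L low libraries (adjusted p up to 0.206). Averaged over both densities Cxcl12 was higher with D325H than with S510L by 1.96 ± 0.43 (adjusted p = 0.00242) and than with F428D by 2.77 ± 0.43 (adjusted p = 5.23e-05).

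EV and F428D gave Cxcl12 levels near those of WT. EV was at 122, 99.3 and 53.04 TPM (low) and 89.1, 92.9 and 91.5 TPM (high), and F428D at 200.2, 114 and 35.1 TPM (low) and 96.0, 91.5 and 76.3 TPM (high). The low-density groups overlap and are wide, and the high-density EV and F428D libraries all lie above the 3 WT libraries. F428D did not pass the test against WT (0.91 ± 0.60 and 0.61 ± 0.60, adjusted p = 0.812 and 0.963), nor did WT against EV (-0.81 ± 0.60 and -0.67 ± 0.60, adjusted p = 0.901 and 0.869). Of its receptors, Cxcr4 was at or under 0.318 TPM in every library, while Ackr3, a scavenging receptor for Cxcl12, was at 14.2 to 68.5 TPM and was higher with D325H than with WT at high density (0.95, adjusted p = 0.0421; low density 0.50, adjusted p = 0.211).

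Ccl2 and Ccl7 lie beside each other on chromosome 11 (chr11:82035571-82037453 and chr11:82045712-82047525, GRCm38, GENCODE M21), 8258 bases apart with no protein-coding gene between them, and both were high with S510L. At high density Ccl2 was at 39.0, 46.5 and 51.2 TPM with S510L and at 12.7, 10.1 and 11.5 TPM with WT. At low density it was at 17.6, 75.5 and 36.3 TPM with S510L and at 14.4, 14.2 and 7.27 TPM with WT. The groups did not overlap at either density, although the S510L low libraries were spread widely. The difference was 1.90 ± 0.48 at high density (limma adjusted p = 0.0154) and 1.59 ± 0.48 at low density (adjusted p = 0.0199). The high-density call ended without WT high 2, WT high 3 or S510L high 2 (adjusted p up to 0.0579), and the low-density call without WT low 3 or S510L low 2 (up to 0.155).

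Ccl2 with D325H was at 17.0, 44.9 and 27.1 TPM (low) and 29.5, 26.0 and 24.5 TPM (high), and with F428D at 11.2, 17.4 and 39.9 TPM (low) and 29.1, 20.1 and 22.2 TPM (high). At high density both groups lay wholly above WT, yet neither passed the test (D325H 1.16 ± 0.48, adjusted p = 0.126; F428D 0.99 ± 0.48, adjusted p = 0.917). At low density D325H gave 1.20 ± 0.48 (adjusted p = 0.067). EV was at 40.6, 9.63 and 10.8 TPM (low) and 18.7, 19.4 and 11.3 TPM (high), so that EV low 1 alone was far above the WT libraries.

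Ccl7 was at 7.02, 21.1 and 11.0 TPM with S510L at low density, 9.42, 14.4 and 9.87 TPM with D325H, and 3.87, 3.85 and 0.991 TPM with WT. Both changed proteins lay wholly above WT, with differences of 1.83 ± 0.44 (S510L, limma adjusted p = 0.004) and 1.74 ± 0.44 (D325H, adjusted p = 0.00529). At high density it was at 6.80, 10.7 and 11.3 TPM with S510L, 6.90, 5.86 and 1.58 TPM with D325H, and 4.30, 1.98 and 3.09 TPM with WT. S510L again lay above WT but did not pass the test (1.37 ± 0.44, adjusted p = 0.0504), and D325H overlapped WT (0.37 ± 0.44, adjusted p = 0.633). EV (2.01 to 6.27 TPM) and F428D (1.06 to 4.63 TPM) stayed within the low range. The mean over both densities was higher with S510L than with F428D by 1.48 ± 0.31 (adjusted p = 0.000811) and with D325H than with F428D by 0.93 ± 0.31 (adjusted p = 0.0235, lost in 7 of 23 alternatives). D325H and S510L did not differ by the test in Ccl7 (-0.55 ± 0.31, adjusted p = 0.212) or Ccl2 (-0.57 ± 0.34, adjusted p = 0.243).

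The other chemokine genes next to them were close to silent. Ccl12 was at 0 in all 30 libraries, Ccl11 stayed at or under 0.0738 TPM, and Ccl8 reached 1.57 TPM in WT low 1. Ccr2, the receptor of both chemokines, stayed at or under 0.0921 TPM, and Ccr3 was at 0 throughout.

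Lif, a cytokine of the Il6 family, was lower with D325H than with WT at both densities. At low density it was at 1.05, 0.645 and 2.56 TPM with D325H and at 6.63, 6.28 and 6.23 TPM with WT. At high density it was at 1.20, 0.627 and 0.635 TPM with D325H and at 5.10, 2.56 and 4.75 TPM with WT. No D325H library reached the WT range of its density. Lif fell by 1.69 ± 0.26 (limma adjusted p = 0.000109) and by 1.47 ± 0.26 (adjusted p = 0.00202) on the log2(TPM + 1) scale, which understates changes at such low levels.

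With S510L, Lif was at 1.49, 2.20 and 1.35 TPM at low density, below all WT libraries, and fell by 1.47 ± 0.26 (limma adjusted p = 0.000275, called in all 16 alternatives). At high density the S510L values of 3.00, 2.89 and 2.29 TPM overlapped WT, and the difference was -0.43 ± 0.26 (adjusted p = 0.334). The change of the S510L difference between densities was 1.04 ± 0.37 and was not called (adjusted p = 0.422). EV was at 4.87, 2.86 and 4.80 TPM (low) and 3.14, 2.45 and 1.82 TPM (high), and F428D at 3.48, 6.67 and 6.59 TPM (low) and 4.80, 5.61 and 4.67 TPM (high). F428D overlapped WT at both densities (-0.21 ± 0.26 and 0.27 ± 0.26, adjusted p = 0.897 and 0.962). Averaged over densities, Lif was lower with D325H than with F428D (-1.61 ± 0.18, adjusted p = 2.92e-06) and with S510L than with F428D (-0.98 ± 0.18, adjusted p = 0.000296). D325H was also below S510L (-0.63 ± 0.18, adjusted p = 0.0169), a call lost without D325H low 2 and with a pseudocount of 5.

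Lif and Il6 share the receptor chain of Il6st, which stood at 45.3 to 377 TPM and was the most abundant of the receptor genes at the median. Il6st was higher than with WT at low density with D325H (1.78, limma adjusted p = 0.0032) and with S510L (1.25, adjusted p = 0.0325), and did not pass at high density (1.13 and 0.49, adjusted p = 0.0838 and 0.526). Lifr, the specific chain of the Lif receptor, was at 4.21 to 15.4 TPM and was not called against WT (D325H 0.74 and 0.61, S510L 0.60 and 0.56 at low and high density, adjusted p = 0.0793 to 0.286). Clcf1 and Il11, further cytokines of that family, were lower at low density with D325H (-1.15 and -1.83, adjusted p = 0.000637 and 0.0138) and with S510L (-1.04 and -2.08, adjusted p = 0.00132 and 0.00704). At high density both passed with D325H (-0.73 and -1.96, adjusted p = 0.0344 and 0.023) and neither with S510L (adjusted p = 0.194 and 0.216). Ctf1, another member of the family, was higher at low density with D325H (0.51, adjusted p = 0.0256) and S510L (0.46, adjusted p = 0.0483), so the family did not move in 1 direction.

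Ptgs2 was also lower with D325H. It was at 11.5, 12.6 and 26.9 TPM with D325H and at 59.2, 38.7 and 55.5 TPM with WT at low density. At high density it was at 8.15, 3.72 and 6.38 TPM with D325H and at 26.6, 22.3 and 29.1 TPM with WT. The groups did not overlap, and Ptgs2 fell by 1.61 ± 0.42 (limma adjusted p = 0.0067) at low and 1.98 ± 0.42 (adjusted p = 0.00572) at high density. Without D325H high 2 the high-density call ended (adjusted p = 0.0573).

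With S510L, Ptgs2 was at 21.5, 26.6 and 19.5 TPM at low density, below WT without overlap and just short of the threshold (-1.13 ± 0.42, limma adjusted p = 0.0538), and at 28.1, 42.9 and 21.7 TPM at high density, overlapping WT (0.19 ± 0.42, adjusted p = 0.83). The change between densities, 1.33 ± 0.60, was not called (adjusted p = 0.528). Averaged over densities D325H was below S510L (-1.32 ± 0.30, adjusted p = 0.00315) and F428D (-1.42 ± 0.30, adjusted p = 0.000965). EV was at 26.9, 15.9 and 46.9 TPM (low) and 18.5, 12.5 and 16.3 TPM (high), and F428D at 20.9, 52.7 and 81.8 TPM (low) and 12.0, 28.3 and 13.8 TPM (high).

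Other genes of the prostaglandin pathway did not all go the same way. Of 13 listed genes 9 were tested. At low density with D325H 1 was higher and 4 were lower than with WT, with a median difference of -0.34 against 0.00 over all tested genes, of which 29.0% were called. Ptgis, the prostacyclin synthase, was higher with D325H at a mean of 19.7 against 0.349 TPM (3.85, limma adjusted p = 0.000445), and with S510L at 15.3 TPM (3.39, adjusted p = 0.0012). Ptgs1, the constitutive cyclooxygenase, was lower with D325H at both densities (-1.57 and -1.90, adjusted p = 0.0131 and 0.0115) and did not pass with S510L (adjusted p = 0.199 and 0.233). Abcc4, an exporter of prostaglandins, was lower at low density with D325H (-1.37, adjusted p = 0.00611) and S510L (-1.25, adjusted p = 0.0128). Pla2g4a, which releases the substrate arachidonic acid, was lower only at high density among these D325H tests (-0.43, adjusted p = 0.0402; low -0.22, adjusted p = 0.22).

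Counted over the set, 4 of the 10 genes passed the test for D325H against WT at low density, where 29.0% of all tested genes did (Cxcl12 and Ccl7 higher, Lif and Ptgs2 lower). At high density 3 of 10 passed (Cxcl12, Lif and Ptgs2), against 10.2% of all tested genes. For S510L 4 of 10 passed at low density (Cxcl12, Ccl2 and Ccl7 higher, Lif lower), against 23.3%, and 1 of 10 at high density (Ccl2), against 9.17%. The low-density shares are thus not far from the background. Their median differences were -0.18 (D325H) and -0.44 (S510L), against 0.00 and 0.04 over all tested genes. When the low-density D325H and WT libraries were fitted alone, so that the spread was estimated from them only, none of the 4 D325H calls was kept (adjusted p = 0.0553 to 0.0795), and calls over all genes went from 4081 to 247. With the filter on low values also applied within those libraries, a setting chosen after seeing the data, Lif, Ptgs2 and Cxcl12 were called (adjusted p = 0.0330 to 0.0455), Ccl7 was not (0.0532), and 518 genes (4.09% of those tested in this setting) were called in all. For S510L at low density the same setting kept Lif, called Ptgs2 (adjusted p = 0.0160), and did not keep Ccl2, Ccl7 and Cxcl12 (0.0506 to 0.11), with 11.1% of all tested genes called. Il6 did not pass the filter within these low-density groups and was not tested there. At high density it called 6 of 10 genes for each protein, where it called 15.2% (D325H) and 23.8% (S510L) of all tested genes: Lif, Ptgs2 and Csf1 lower and Ccl2, Cxcl5 and Cxcl12 higher with D325H, and Il33, Cxcl1 and Cxcl5 lower and Ccl2, Ccl7 and Cxcl12 higher with S510L.

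**Figure D2:**
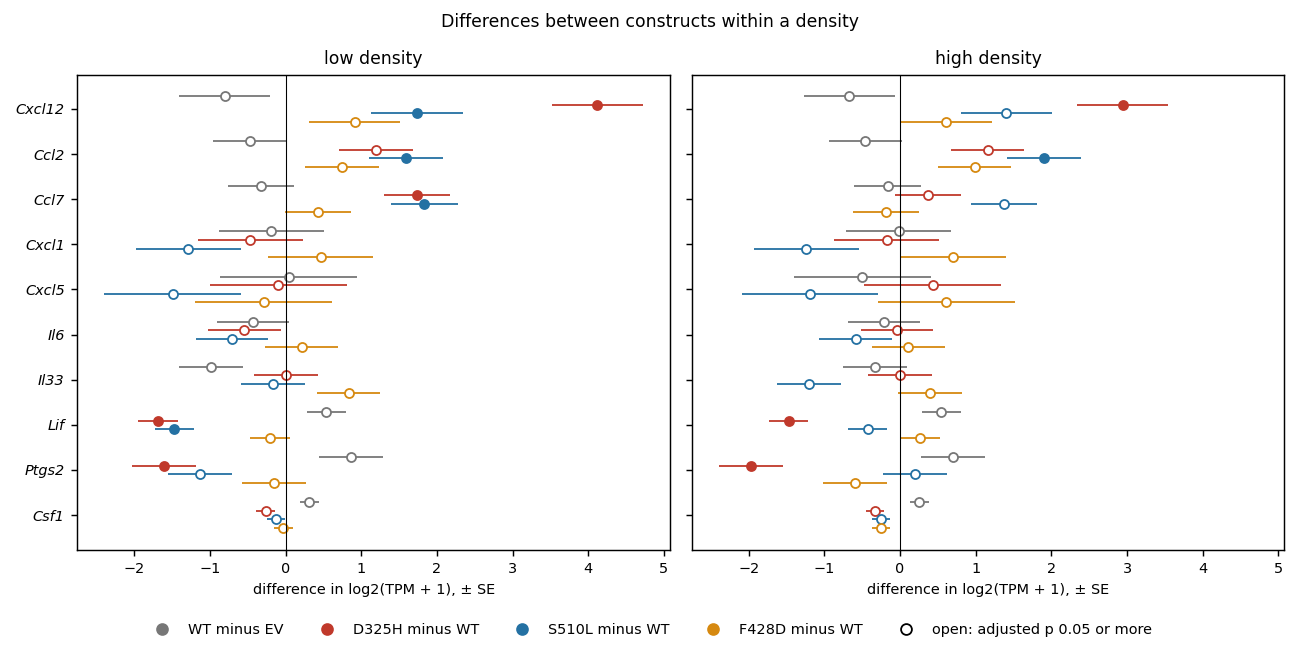
Difference in log2(TPM + 1) with its SE for each gene, at low (left) and high density (right), for WT minus EV and for each changed protein minus WT; filled points have an adjusted p under 0.05. Cxcl12 lies farthest to the right with D325H (4.12 and 2.94), Lif and Ptgs2 lie to the left with D325H at both densities, and no WT minus EV or F428D minus WT point is filled.

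F428D against WT called 0 of 10 genes at both densities (0.0142% and 0.0639% of all tested genes), and no gene of the set had an unadjusted p under 0.05 in limma. WT against EV also called 0 of 10 at both densities (0.305% and 0.0284%), with 2 and 1 genes at an unadjusted p under 0.05: Il33 and Csf1 at low density and Lif at high density. Comparisons with WT share the WT libraries, so the D325H, S510L and F428D differences are not independent of each other. Comparing the changed proteins directly, over both densities, 3 of 10 genes passed between D325H and S510L (22.9% of all tested genes), 4 between D325H and F428D (33.4%) and 4 between S510L and F428D (33.5%).

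The level of Trp53, which encodes p53, also differed between constructs. Trp53 was at 15.4, 17.7 and 131 TPM in D325H low and 54.6, 24.7 and 80.3 TPM in S510L low, against 272, 240.4 and 330.1 TPM in WT low. At high density it was at 59.2, 32.6 and 126 TPM with D325H, 111, 86.9 and 73.2 TPM with S510L, and 253, 279 and 266 TPM with WT. Trp53 was lower than with WT in D325H at both densities (-3.02 and -2.07, limma adjusted p = 0.000287 and 0.015) and in S510L at low density (-2.52, adjusted p = 0.00125; high -1.57, adjusted p = 0.0605). D325H low 3, with the most Trp53 of its group, also had the lowest Cxcl12 and the highest Lif and Ptgs2 of the group. Over all 3 libraries of D325H low, however, Cxcl12 ran neither with nor opposite to Trp53. In D325H high Cxcl12 ran in the order opposite to Trp53, while Lif and Ptgs2 did not follow its order. No S510L library repeated the whole pattern of D325H low 3. S510L high 1, with the most Trp53 of its group, had the lowest Cxcl12 and the highest Lif, but not the highest Ptgs2. In S510L low Lif and Ptgs2 ran in the order opposite to Trp53 and Cxcl12 in neither order, and in S510L high Cxcl12, Ccl2 and Ccl7 ran opposite to it and Lif with it. Such orders were also seen in the other constructs. Cxcl12 ran opposite to Trp53 in WT low and F428D low, and Ptgs2 in F428D high. Lif, Ccl2 and Ccl7 ran opposite to it in WT high and EV low. Lif ran with Trp53 in EV high, Ccl2 in F428D low and F428D high, and Ptgs2 and Ccl7 in F428D low. With 3 libraries a group these orders are descriptions. The S510L libraries, at 24.7 to 111 TPM of Trp53, lay within the range of the D325H libraries (15.4 to 131 TPM), and their Cxcl12 was between 128 and 204 TPM. Introduced Cry2 also differed, at means of 20.7 (low) and 27.6 TPM (high) with S510L against 75.5 and 72.3 TPM with WT (limma adjusted p = 0.000539 and 0.0116). With D325H Cry2 was at 93.6, 126 and 129 TPM (low) and 49.7, 161 and 122 TPM (high). With F428D it was at 88.2, 99.6 and 125 TPM (low) and 81.5, 58.5 and 76.7 TPM (high).

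**Figure D3:**
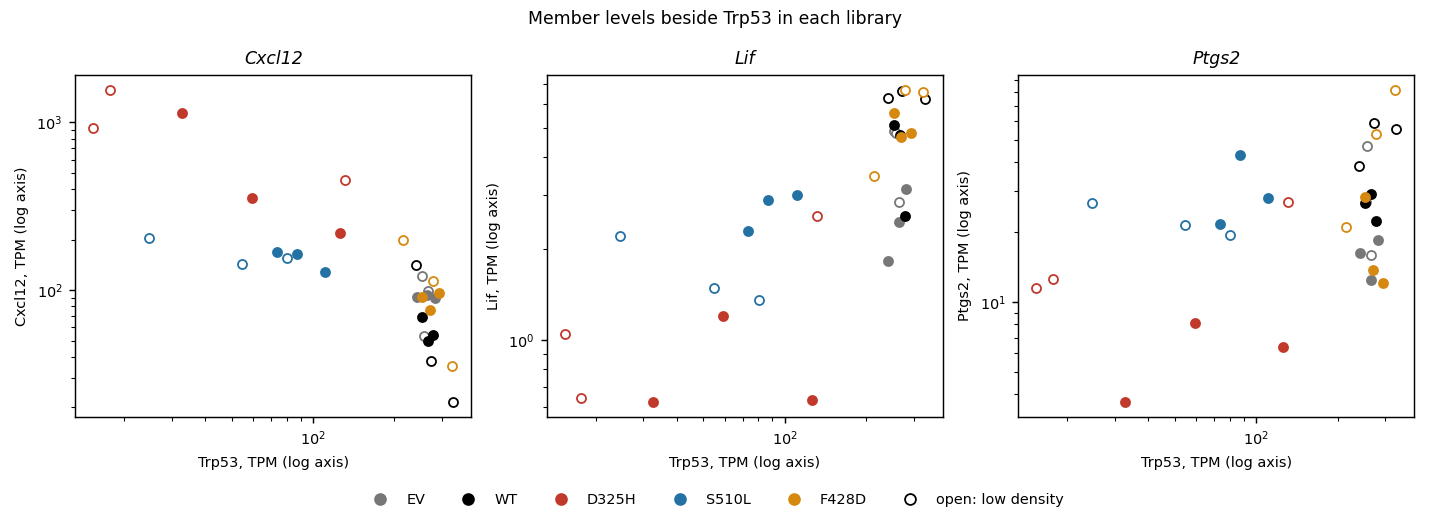
TPM of Cxcl12, Lif and Ptgs2 against TPM of Trp53 in each of 30 libraries (both log axes), colored by construct, open for low and filled for high density. The D325H and S510L libraries lie at 15.4 to 131 TPM of Trp53 and all others at 214 TPM or more, and at like Trp53 the D325H libraries hold more Cxcl12 than the S510L libraries.

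Fibroblast markers also differed by construct at low density. Their summed level was 13111 to 16502 TPM in D325H low, 13598 to 14591 TPM in S510L low and 9517 to 11907 TPM in WT low. It was 11096 to 11645 TPM in EV low and 9980 to 15081 TPM in F428D low, where F428D low 1 lay within the D325H low range. With D325H 7 of 11 tested markers were higher and 1 lower than with WT at low density, against 29.0% of all tested genes called. At high density 3 of 11 were higher and 0 lower with D325H (10.2% of all tested genes), and 1 higher and 0 lower with S510L (9.17%). Col1a1 and Pdgfra were among those higher with D325H at low density (2.52 and 2.09, limma adjusted p = 6.6e-05 and 0.0106). Krt19 was lower with D325H at low density (-2.57, limma adjusted p = 0.000391). The summed level of the 7 epithelial markers was 29.2 to 284 TPM in D325H low and 338 to 569 TPM in WT low. Not all of them followed Krt19: Krt14 was highest in D325H low 3 (5.42 TPM) and Krt8 in S510L high 3 (4.48 TPM). The part of the p53 genes, of Cry2 level and of these markers in the cytokine results was not tested, and in bulk RNA fewer cells of a kind and less RNA per cell cannot be told apart.

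Cxcl1 and Cxcl5, the neutrophil chemokines, lie in the Cxcl cluster of chromosome 5 (chr5:90891241-90893115 and chr5:90759360-90761624), 129616 bases apart. In the fit of all 30 libraries neither passed the test of any changed protein against WT. At low density Cxcl1 was at 15.3, 81.0 and 5.82 TPM with WT and at 114, 27.1 and 6.45 TPM with F428D, so that libraries of 1 group differed more than most groups did. S510L was low throughout, at 5.14, 7.05 and 11.6 TPM (low) and 10.3, 10.2 and 13.8 TPM (high). Every S510L library at high density lay below the WT (23.7 to 34.8 TPM), EV (23.4 to 33.3), D325H (19.4 to 31.2) and F428D (37.1 to 56.5) libraries.

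The S510L difference from WT was -1.29 ± 0.69 at low density and -1.24 ± 0.69 at high density (limma adjusted p = 0.191 and 0.287). With only S510L high and WT high fitted, Cxcl1 and Cxcl5 were both called (adjusted p = 0.00531 and 0.0173). Against F428D over both densities Cxcl1 was lower with S510L by -1.85 ± 0.49 (adjusted p = 0.00561), a call kept in all 23 alternatives. Cxcl5 was at 9.13, 7.48 and 14.3 TPM (low) and 10.5, 12.9 and 21.7 TPM (high) with S510L, also below the other constructs at high density (30.9 to 73.8 TPM), but its difference from F428D did not pass (-1.50 ± 0.64, adjusted p = 0.0739). Its low-density libraries were at 213, 26.9 and 1.67 TPM with F428D and at 19.4, 114 and 11.4 TPM with WT, the widest spread of the set.

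The genes between them, Ppbp, Pf4, Cxcl3 and Cxcl15, were low. Cxcl3, Cxcl15 and Pf4 stayed under 1 TPM, and Ppbp, a further neutrophil chemokine, had a median of 2.11 TPM and was highest in F428D low 1 (16.7 TPM), the library with the most Cxcl1 and Cxcl5. Cxcl2, which lies beyond Cxcl1, reached 1.27 TPM. Cxcr2, their receptor, had a median of 0.528 TPM.

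Il6 was at or near the limit of the filter. It was at 0.0837, 0.366 and 0.620 TPM in S510L low, 0.261, 0.557 and 0.717 TPM in D325H low, 2.16, 2.51 and 1.34 TPM in EV low, and between 0.0591 and 3.48 TPM in WT low. The WT low libraries spanned the values of all these groups. In the fit of all 30 libraries no comparison called Il6 (limma adjusted p of at least 0.069), with F428D low 1 the highest library (5.11 TPM). Its receptor chain Il6ra was at 1.17 to 3.01 TPM.

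In the fit of all 30 libraries Il33 was the only gene of the 10 called higher at high density, which was also harvested earlier. It was at 1.95, 2.66 and 1.36 TPM with WT at low density and 5.98, 7.04 and 7.08 TPM at high density. With D325H it was at 1.16, 2.41 and 2.46 TPM (low) and 8.34, 5.21 and 6.70 TPM (high). In both constructs the densities did not overlap. They overlapped with EV (6.54, 5.30 and 3.20 against 6.17, 8.77 and 12.0 TPM), with F428D (12.8, 2.33 and 2.13 against 7.56, 9.68 and 10.3 TPM) and with S510L (1.40, 0.588 and 3.75 against 3.24, 2.38 and 1.58 TPM).

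Averaged over the 5 constructs Il33 was higher at high density by 0.96 ± 0.19 (limma adjusted p = 0.00149), and Ptgs2 was lower by 0.80 ± 0.19 (-0.80, adjusted p = 0.00545). These were 2 of 10 genes, against 20.1% of all tested genes, and both calls were kept in all 39 alternatives. Without WT low 2 and F428D low 1, an alternative chosen after seeing the data, 5 of the 10 passed, against 14.5% of all tested genes. Within single constructs 0 of 10 passed in EV (0.0781% of all tested genes), WT (0%), D325H (4.11%), S510L (1.04%) and F428D (1.04%), with 1, 3, 3, 0 and 2 genes at an unadjusted p under 0.05 in limma. In these tests, by construct, Il33 gave 0.73, 1.38, 1.38, 0.34 and 0.95, and Ptgs2 gave -0.77, -0.93, -1.30, 0.40 and -1.37, in the order EV, WT, D325H, S510L and F428D. Cxcl1, Cxcl5 and Il6 were also above 0 in every construct. Their means of 0.56, 0.64 and 0.32 were not called (limma adjusted p = 0.204, 0.264 and 0.297). Ptgs2 libraries of the 2 densities did not overlap in WT and D325H, and it was S510L whose estimate had the other sign. A joint test of whether construct and density interact called 0 of 10 genes (0.0710% of all tested genes), with a smallest adjusted p of 0.643 and 2 genes, Lif and Ptgs2, at an unadjusted p under 0.05 (limma).

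**Figure D4:**
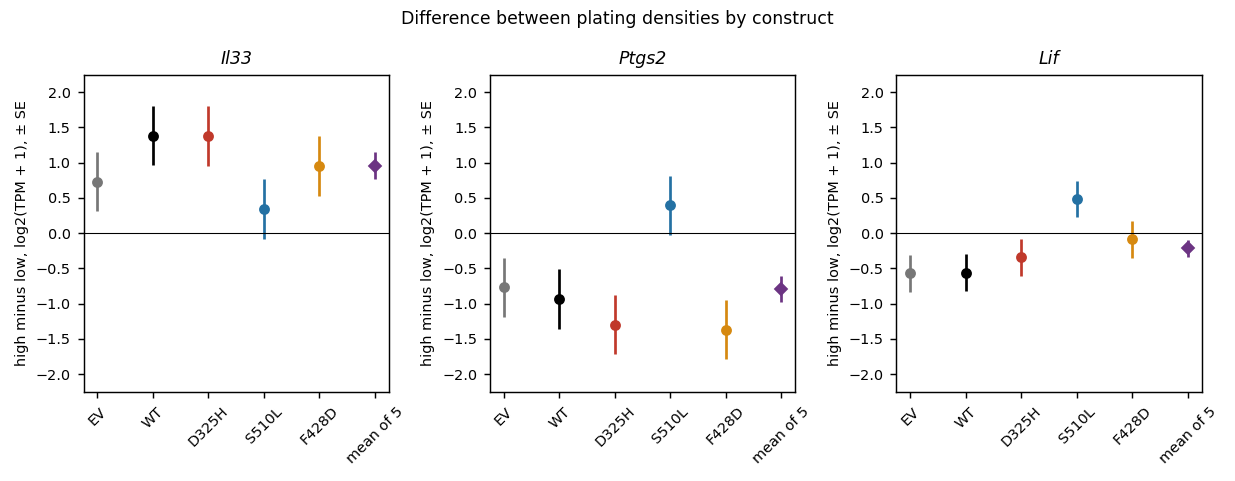
High minus low density in log2(TPM + 1) with its SE for Il33, Ptgs2 and Lif, by construct and as the mean of 5 constructs. Il33 is above 0 in every construct (mean 0.96), and Ptgs2 (mean -0.80) and Lif (mean -0.22, adjusted p = 0.188) are below 0 in all but S510L and, for Lif, close to 0 with F428D.

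Il33 also differed between S510L and F428D over both densities (-1.30 ± 0.30, limma adjusted p = 0.00182). At high density S510L (1.58 to 3.24 TPM) lay wholly below WT (5.98 to 7.08 TPM) without passing the test (-1.20 ± 0.42, adjusted p = 0.0742). Its receptor Il1rl1 was at 15.0 to 472 TPM, highest in F428D low 1, the library that was also highest for Il33, and was not called against WT with D325H or S510L (adjusted p = 0.834 to 0.938).

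Csf1 was the steadiest of the 10, at 114 to 176 TPM in all 30 libraries, and no comparison called it in the fit of all 30 libraries. D325H against WT gave -0.26 ± 0.12 at low and -0.33 ± 0.12 at high density (limma adjusted p = 0.111 and 0.0865), and WT against EV at low density gave 0.31 ± 0.12 (adjusted p = 0.497). With only D325H high and WT high fitted, the difference was called (adjusted p = 0.0345, and 0.0307 with the filter within them). Its receptor Csf1r stayed at or under 0.314 TPM.

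Libraries of the same group varied together for several of the genes. Deviations from the group mean in log2(TPM + 1) were correlated over 30 libraries for all 45 pairs of the 10 genes, with p from 100000 permutations of libraries within groups. After adjustment over the 45 pairs 10 passed by Pearson's r, 9 of them positive. The share among pairs of all tested genes is not given here, so these relations are not shown to be particular to the 10 genes. Over all tested genes, deviations of differently numbered low-density libraries of different groups correlated at -0.55 to 0.56. Of the 10 pairs, Il6 with Il33, Cxcl5 with Cxcl12 and Ptgs2 with Cxcl12 did not pass by Spearman's rho (permutation, adjusted p = 0.0722, 0.116 and 0.0682). At high density r was 0.05 for Il6 with Il33, 0.11 for Cxcl5 with Cxcl12 and 0.03 for Il33 with Cxcl5. Cxcl1 and Cxcl5 had r = 0.94 and Spearman's rho = 0.84 (permutation p = 1e-05, the smallest these permutations can give, and 3e-05, adjusted p = 0.00045 and 0.00135), and r = 0.90 without F428D low 1 and WT low 2, the farthest 2 libraries. The relation was present at low (r = 0.95) and high density (r = 0.64).

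Lif and Ptgs2 had r = 0.74 and rho = 0.74 (permutation p = 0.00024 and 0.00014, adjusted p = 0.0042 and 0.00315), 0.65 without the farthest 2 libraries, and 0.85 at low and 0.53 at high density. Ccl2 and Ccl7 had r = 0.63 and rho = 0.67 (permutation p = 0.00028 and 0.00056, adjusted p = 0.0042 and 0.0084), 0.52 without EV low 1 and S510L low 2, and 0.84 at low but 0.30 at high density. Il6 went with Cxcl1 (r = 0.79, rho = 0.69, permutation p = 0.00055 and 0.00102, adjusted p = 0.00619 and 0.0115), at 0.67 without its farthest 2 libraries, 0.94 at low and 0.40 at high density. Ptgs2 and Cxcl12 went in opposite directions (r = -0.64, rho = -0.57, permutation p = 0.00429 and 0.0121, adjusted p = 0.0241 and 0.0682), at -0.51 without F428D low 1 and F428D low 3, -0.74 at low and -0.38 at high density. The low-density groups, which were the more spread, carry most of these relations.

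**Figure D5:**
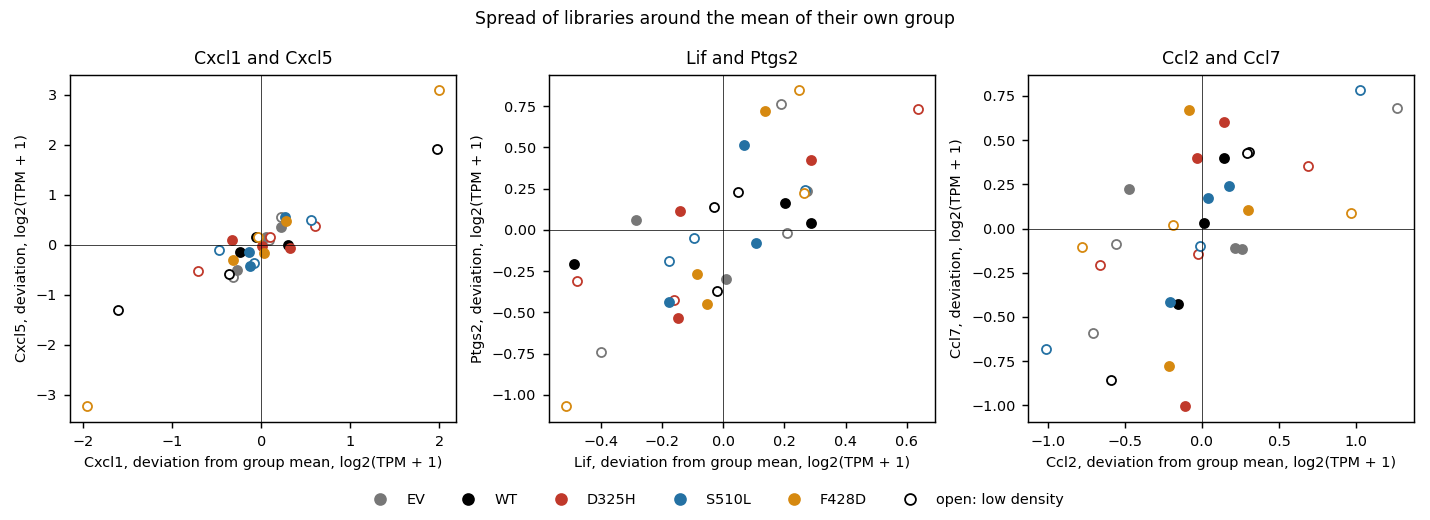
Deviation of each library from its group mean in log2(TPM + 1) for Cxcl1 and Cxcl5, Lif and Ptgs2, and Ccl2 and Ccl7, with 30 libraries colored by construct, open for low and filled for high density. F428D low 1 and WT low 2 lie at the upper right and F428D low 3 at the lower left for Cxcl1 and Cxcl5 (r = 0.94), and the points spread more widely for Ccl2 and Ccl7 (r = 0.63).

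The genes whose log2(TPM + 1) followed each member most closely over the 30 libraries, given as a description, were as follows. Cxcl12 was most like Svbp (r = 0.94), Lif most like Epha2 (r = 0.93) and Ptgs2 most like Selp (r = 0.94). Cxcl5 was most like Il13ra1 (r = 0.91) and Cxcl1 most like Traf3ip2 (r = 0.90), an adaptor of interleukin receptors. Ccl2 was most like Tubb5 (r = 0.84), then Nfkbia (r = 0.80), which encodes the inhibitor of NF-kappaB that NF-kappaB itself induces. Ccl7 was most like Myh10 (r = 0.85), Il33 most like Barx2 (r = 0.84) and Il6 most like Hp (r = 0.84), and Csf1 had no gene above r = 0.63 (Scaf4). All such values share the 30 libraries and the differences between constructs.

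Of 19 tested genes of NF-kappaB subunits and feedback, 6 were higher and 3 lower with D325H than with WT at low density, and 4 higher and 3 lower with S510L, with medians of 0.12 and 0.10 against 0.00 and 0.04 over all tested genes, of which 29.0% and 23.3% were called. At high density 3 were higher and 0 lower with D325H, and 4 higher and 0 lower with S510L, where 10.2% and 9.17% of all tested genes were called. Relb, a subunit of the alternative pathway, was higher in all 4 of these comparisons: 0.86 and 0.62 with D325H and 0.81 and 0.68 with S510L at low and high density (limma adjusted p = 0.000103 to 0.00567). Nfkbia was likewise higher in all 4, by 0.51 and 0.55 with D325H and by 0.64 and 0.74 with S510L (adjusted p = 0.00487 to 0.0317). Chuk and Ikbkb, which encode the kinases that release NF-kappaB, were lower at low density with D325H (-0.54 and -0.57, adjusted p = 0.00674 and 0.0351) and with S510L (-0.55 and -0.88, adjusted p = 0.00655 and 0.00268).

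Of 18 tested genes of AP-1, C/EBP, STAT3 and mRNA decay, 2 were higher and 1 lower with D325H at low density, and 1 higher and 3 lower with S510L, where 29.0% and 23.3% of all tested genes were called, so these shares were not above the background. The medians were 0.07 and -0.12, against 0.00 and 0.04 over all tested genes. Fosb was higher with both (1.06 and 0.81, limma adjusted p = 0.00234 and 0.0167) and Junb, an AP-1 subunit, lower with both (-0.75 and -0.82, adjusted p = 0.00376 and 0.00199). Zfp36l1, which promotes decay of AU-rich mRNAs, was higher with D325H at both densities (1.29 and 1.21, adjusted p = 0.00444 and 0.0182) and did not pass with S510L (adjusted p = 0.406 and 0.644). Cebpb was lower with S510L at both densities (-0.73 and -0.58, adjusted p = 0.00273 and 0.0291).

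Of 30 further chemokine genes 11 were tested. At low density 3 were higher and 4 lower with D325H than with WT, and 2 higher and 2 lower with S510L, with medians of -0.44 and -0.57. Over all tested genes 29.0% and 23.3% were called in these comparisons, and the medians were 0.00 and 0.04. Cxcl10, an interferon-induced chemokine, was higher with D325H (1.30, mean 4.23 against 1.41 TPM, limma adjusted p = 0.0087) and with S510L at low (1.11, adjusted p = 0.0265) and high density (1.38, adjusted p = 0.016). Cx3cl1, a membrane-bound chemokine, was lower at low density with D325H (-1.0, mean 19.5 against 40.0 TPM, adjusted p = 0.00349) and S510L (-1.11, adjusted p = 0.0016). Ccl17 was lower with both at low density (-1.93 and -1.95, adjusted p = 0.00181 and 0.00166). Of 17 tested genes among 32 further cytokines in the table, 4 were higher and 3 lower with D325H at low density and 2 higher and 3 lower with S510L, against 29.0% and 23.3% of all tested genes, with medians of -0.16 and -0.15 against 0.00 and 0.04. Kitl, the ligand of the receptor Kit, was higher at low density with both (1.04 and 0.88, adjusted p = 0.0176 and 0.0473) and at high density with D325H (1.21, adjusted p = 0.0188).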

How the data were processed

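RNA from 30 libraries was sequenced as single-end reads of 50 nt. The authors deposited 1 table of TPM (abundance per transcript length, scaled alike in each library), made with kallisto per the submitters' processing notes, which name the human assembly GRCh37.p13 while the symbols are of mouse. The transcript set is not given in the sources used here, and kallisto divides reads among like transcripts, so values of like chemokines are less certain. Columns were matched to samples by the number at the start of the title. On the scale log2(TPM + 1), the 14093 genes that reached 1 TPM in 3 or more libraries were fitted with limma 3.58.1 (R 4.3.3), 1 mean per group over all 30 libraries, with empirical Bayes and a variance trend. Benjamini-Hochberg adjusted p under 0.05 was called. The fit was also run on simulated data in which each gene had the same spread in all groups. The real groups differed in spread (median SD 0.113 to 0.266), so that run does not test how the fit handles this. The 10 genes and the gene lists were chosen with earlier results of these data known. Named by rule are the 10 genes, up to 4 called genes of smallest p per list and comparison, Trp53, Cdkn1a, Mdm2 and Cry2, and the 3 genes of highest Pearson's r with each of the 10 (mean log2 of at least 2), not all of which are printed; other listed genes were chosen after their values were seen. Positions are from GENCODE M21 (GRCm38). Same-numbered libraries of different groups correlated at -0.24 to 0.48 at low and -0.14 to 0.19 at high density, so the numbers were not used as pairs. The alternatives were other pseudocounts, no filter, quantile and median-ratio scaling, no variance trend, a replicate block, fits of only the compared groups (also filtered within them), and leaving out libraries. Nfkb2, Fosl1, Tslp and Cd14 were not analysed here.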

Additional observations from a re-analysis of the deposited data

How the results depend on the processing

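Of the 25 called differences of single genes, 486 of 519 values under the alternatives stayed called, 33 did not and 0 changed sign. With only the compared groups fitted, the number of the 10 genes called was 0 for D325H and 2 for S510L against WT at low density, 6 for each at high density, and 5 between D325H and S510L, where 1.75%, 8.39%, 11.2%, 20.2% and 18.04% of all tested genes were called. With the filter also applied within the compared groups, chosen after seeing the data, these numbers were 3, 2, 6, 6 and 5 (4.09%, 11.1%, 15.2%, 23.8% and 19.6% of all tested genes), and WT against EV at high density called 1 gene, Cxcl12 (adjusted p = 0.0353; 4.16%). For S510L at high density it was 2 with a pseudocount of 5 and 2 with quantile normalization (9.19% and 7.10%). For density within D325H it was 1 with quantile normalization and 1 with median-ratio scaling (3.90% and 3.91%). Without WT low 2 and F428D low 1 it was 5 for density over all constructs (14.5%). The cause was not tested.

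Leaving out 1 library at a time gave 4 to 4 genes for D325H and 2 to 5 for S510L against WT at low density, and 1 to 3 and 0 to 1 at high density. Over all tested genes these fits called 15.5% to 35.2% and 14.6% to 24.1% at low and 1.80% to 10.05% and 4.06% to 7.31% at high density. It gave 2 to 4 between D325H and S510L, 3 to 6 between D325H and F428D and 4 to 7 between S510L and F428D (14.2% to 30.6%, 25.3% to 40.9% and 27.9% to 36.4% of all tested genes). Density over all constructs gave 2 to 4 (15.1% to 29.1%) and density within D325H 0 to 1 (0.0426% to 8.58%). WT against EV, F428D against WT, density within EV, WT, S510L and F428D, and the joint test gave 0 to 0. Over all tested genes, WT against EV called 0.0142% to 0.603% (low) and 0.00710% to 0.0355% (high). F428D against WT called 0% to 0.0426% (low) and 0.0568% to 0.0781% (high). Density called 0.00710% to 0.419% within EV, 0% to 0.00710% within WT, 0.170% to 4.92% within S510L and 0.121% to 11.7% within F428D. The joint test called 0.0426% to 0.121%. With the replicate number as a block, the counts were 4 and 5 for D325H and S510L against WT at low density, and 3 and 1 at high density. They kept within 1.5 times in the other comparisons. The share of all tested genes called with the block is not printed here, so these counts are not read against it.

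Quantile normalization moved the median difference of all genes by -0.10 for S510L against WT at high density, -0.12 between S510L and F428D, and 0.12 for density within F428D. Over all genes the share of calls that were higher moved from 64.3% to 50.1% (S510L low), 80.6% to 54.7% (S510L high), 26.4% to 46.7% (D325H against S510L), 76.1% to 52.9% (S510L against F428D) and 17.3% to 48.8% (density).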
